A study of Homo sapiens with 4 samples.

Results

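The enzymes of heme synthesis were examined by way of 8 genes (ALAS1, ALAS2, ALAD, UROS, UROD, CPOX, PPOX and FECH). Their members on the array were all probes, the spotted sequences of the array, whose RefSeq accession belongs to 1 of these genes. This gave 13 probes of 8 genes, out of 41000 probes, of which 27210 carried a symbol, for 18203 genes.

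Heme is built by a chain of enzymes that begins and ends in mitochondria. ALAS joins glycine and succinyl-CoA into aminolevulinate. In the cytosol, ALAD and UROS act on the way from aminolevulinate to a ring, and UROD trims the side chains of that ring. In mitochondria, CPOX and PPOX turn it into protoporphyrin IX, and FECH inserts iron. The first step limits the rate in most cells. It is catalysed by ALAS1, which heme itself represses, and in developing red cells by ALAS2.

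RNA was measured in 4 cultures of Nalm-6, an established human pre-B leukemia cell line, with 1 one-colour Agilent array per culture. The cultures were wild type (WT), Arp8 overexpression by its label (Arp8 OE), a knockout of Arp5 (Arp5 KO) and a knockout of Arp8 (Arp8 KO). Arp5 and Arp8 are actin-related subunits of INO80, a complex that remodels chromatin, and the study asked how its loss alters expression under oxidative stress. The stress was 20 uM heme for 12 h according to the protocol, but the labels contradict each other on whether either knockout received heme, so genotype and heme cannot be told apart in any difference that involves a knockout. Both alleles of ARP5 were disrupted by targeting and a line was kept. How the overexpressing cells were made is not given in the sources used here. The Arp8 KO cells had been made in earlier work by the same group. The paper recalls that a conditional knockout of Arp8 was lethal to cells, whereas Arp5 KO cells only grew more slowly. The state of the Arp8 KO culture at harvest is not given, and its part in the differences below was not tested.

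With 1 array per group no test between groups was possible and no difference below was checked against a second culture. All 3 comparisons with WT share the same WT array. The targeted gene ACTR5, which encodes Arp5, differed from WT by -4.27 log2 units in Arp5 KO. The probes of ACTR8, which encodes Arp8, differed from WT by -0.53 and -0.68 log2 units in Arp8 KO. Such differences are not rare there: 14.7% of all probes tested lay at least 0.73 from WT. The knockout of Arp8 is thus not clear from these probes, and Arp8 KO also stands for its label. The ACTR8 probes differed from WT by 0.016 and -0.011 in Arp8 OE, so the overexpression is not seen at these probes and Arp8 OE stands below for the culture with that label. On the 4 arrays, 55.8% to 57.4% of the probes were well above background and none was saturated. All 10 B-lineage markers were well above background on all 4 arrays, but not at 1 level. In Arp8 KO, 2 of their 14 probes were past 2-fold below WT (CD22 at -2.58 and VPREB1 at -1.26), where 4.36% of all probes were, and in Arp8 OE 1 of 14, for RAG1, was past 2-fold above it, beside 2.97%. The part of such shifts in the differences of the heme synthesis genes was not tested.

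Levels are log2 of the background-corrected signal relative to the 75th percentile of the same array, so that 0 is the 75th percentile, and a difference of 1 is 2-fold. The levels of different probes are not comparable with each other. The technical SD given for a difference is the spread between spots of the same probe on 2 arrays, taken from probes of like brightness that were printed 10 times. It covers the variation between spots within a pair of arrays. It does not cover labelling or hybridisation effects that shift all spots of a probe together, nor the spread between cultures.

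Of the 8 genes, 7 had a probe well above background on at least 1 array, with 11 probes, and 10 of these were well above background on all 4 arrays. The widest differences from WT lay in Arp8 KO, where FECH was 2.04-fold lower at 1 of its probes, ALAD was 1.66-fold lower at 1 of its probes and UROS was 1.48-fold higher. The second ALAD probe did not share the lower level, and the second FECH probe was too close to background to tell.

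**Figure D1:**
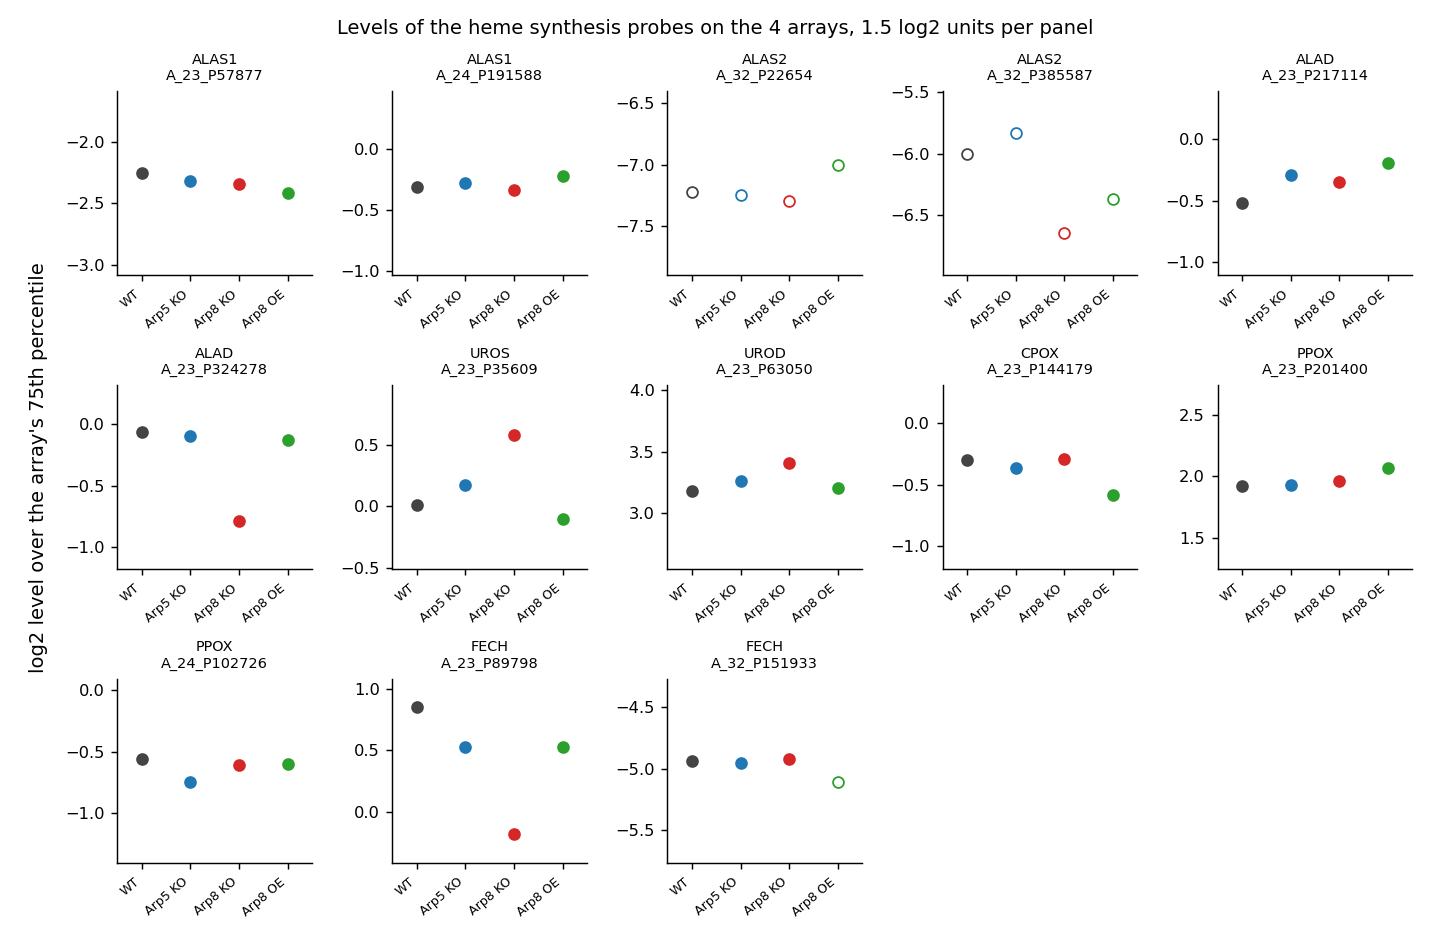
Levels of each probe on the 4 arrays, as log2 over the 75th percentile of the array, in the order of the pathway. Each point is 1 array, open points were not well above background, and all panels span the same height. The Arp8 KO point lies lowest for FECH A_23_P89798 at -0.18 and for ALAD A_23_P324278 at -0.79, and highest for UROS at 0.58.

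ALAS1, the rate-limiting enzyme outside red cells, was nearly level across the arrays. Its brighter probe (A_24_P191588) read -0.31 in WT, -0.22 in Arp8 OE, -0.28 in Arp5 KO and -0.34 in Arp8 KO. Its dimmer probe (A_23_P57877) read -2.25, -2.42, -2.32 and -2.34 on the same arrays. The probes spanned 0.12 and 0.17 log2 units, and none of their 6 differences from WT passed 2 technical SDs. The largest of these was -0.17, with a technical SD of 0.087, at the dimmer probe in Arp8 OE. There the brighter probe went the other way at 0.089. All neighbours in the order of levels lay within 2 technical SDs for both probes, but the ends of the order did not at the brighter probe, where Arp8 KO differed from Arp8 OE by -0.12 (technical SD 0.047).

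ALAS2, the form of developing red cells, did not rise well above background anywhere. Its probes had processed signals of 4.93, 5.07, 4.85 and 4.17 (A_32_P22654), and of 11.5, 7.82, 13 and 6.54 (A_32_P385587), in WT, Arp8 OE, Arp5 KO and Arp8 KO. No difference is given for it, since both sides lie below the range that the array measures. Other red cell genes were likewise low: of 17 probes of 11 erythroid marker genes, 4 were well above background on any array and 1, for HBA1, on all 4. HBB, GATA1, KLF1 and AHSP were well above background on none of the 4 arrays.

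ALAD condenses aminolevulinate into porphobilinogen, and its probes disagreed. Probe A_23_P324278 read -0.063 in WT, -0.13 in Arp8 OE, -0.092 in Arp5 KO and -0.79 in Arp8 KO. Probe A_23_P217114 read -0.52, -0.19, -0.29 and -0.35 on the same arrays. The first set Arp8 KO apart below 3 arrays that lay within 2 technical SDs of each neighbour, whereas the second had its lowest level in WT. Against WT, Arp8 KO was 1.66-fold lower at the first (-0.73, technical SD 0.057) and 1.13-fold higher at the second (0.18, technical SD 0.057). The probes were 0.91 apart in this comparison, and a gap at least as wide was seen in 3.37% of the 2819 genes with 2 probes, both well above background on all 4 arrays. Their mean was -0.28. Which probe reads the ALAD mRNA more faithfully was not tested.

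UROS closes the ring, and its single probe (A_23_P35609) was highest in Arp8 KO. It read 0.014 in WT, -0.10 in Arp8 OE, 0.17 in Arp5 KO and 0.58 in Arp8 KO. All neighbours in this order, from Arp8 KO through Arp5 KO and WT to Arp8 OE, differed by more than 2 technical SDs. Arp8 KO was 1.48-fold above WT (0.56, technical SD 0.048), 1.32-fold above Arp5 KO (0.41) and 1.6-fold above Arp8 OE (0.68). A difference from WT at least as far from 0 as that of Arp8 KO was seen in 22.5% of all probes tested.

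UROD, which trims the side chains of the ring, had the same order at the top on a smaller scale. It read 3.18 in WT, 3.20 in Arp8 OE, 3.26 in Arp5 KO and 3.41 in Arp8 KO. Arp8 KO lay 0.23 above WT (technical SD 0.038) and 0.14 above Arp5 KO (technical SD 0.04), while Arp8 OE and WT lay within 2 technical SDs. Over the 4 probes of the cytosolic genes ALAD, UROS and UROD, the median difference from WT was -0.024 in Arp8 OE, 0.12 in Arp5 KO and 0.20 in Arp8 KO.

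CPOX, the oxidase that brings the pathway back into mitochondria, was lowest in Arp8 OE. It read -0.30 in WT, -0.58 in Arp8 OE, -0.36 in Arp5 KO and -0.29 in Arp8 KO. Arp8 OE was 1.22-fold below WT (-0.29, technical SD 0.058), and the other 3 arrays lay within 2 technical SDs of their neighbours.

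PPOX makes protoporphyrin IX, the ring that receives the iron. Its brighter probe (A_23_P201400) read 1.92 in WT, 2.07 in Arp8 OE, 1.93 in Arp5 KO and 1.96 in Arp8 KO. Its dimmer probe (A_24_P102726) read -0.56, -0.60, -0.75 and -0.61 in this order of arrays. The brighter probe was 0.15 higher in Arp8 OE than in WT (technical SD 0.038), where the dimmer probe differed by -0.043. The dimmer probe differed by -0.19 in Arp5 KO (technical SD 0.061), where the brighter probe differed by 0.0099. In Arp8 KO both probes lay within 2 technical SDs of WT. Neither shift was thus seen at both probes.

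FECH, ferrochelatase, inserts iron into protoporphyrin IX and so makes heme. Its bright probe (A_23_P89798) had processed signals of 1.32e+03 in WT, 935 in Arp8 OE, 1.07e+03 in Arp5 KO and 577 in Arp8 KO. On the scaled log2 axis this was 0.85, 0.53, 0.53 and -0.18. WT was highest, Arp5 KO and Arp8 OE were alike within 2 technical SDs, and Arp8 KO was lowest. Against WT the probe was 2.04-fold lower in Arp8 KO (-1.03, technical SD 0.048), 1.25-fold lower in Arp5 KO (-0.32, technical SD 0.05) and 1.24-fold lower in Arp8 OE (-0.32, technical SD 0.042). Arp8 KO was also 1.64-fold below both Arp5 KO and Arp8 OE. Of all probes tested, 4.19% were as low or lower in Arp8 KO against WT. In either direction, 7.35% lay at least as far from 0, beside 14.7% for the lower ALAD probe and 22.5% for UROS. Relative to the median of the probes of the other heme synthesis genes, FECH was -1.04 in Arp8 KO.

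The second FECH probe (A_32_P151933) was too dim to bear on this. It had signals of 23.9 in WT, 18.8 in Arp8 OE, 24 in Arp5 KO and 21.7 in Arp8 KO. In Arp8 OE it was not well above background. Its levels were -4.94, -5.11, -4.95 and -4.92, close to the lowest level called well above background, which lay between -5.17 and -4.81. It differed from WT by -0.0066 in Arp5 KO (technical SD 0.13) and by 0.023 in Arp8 KO (technical SD 0.11), and no difference is given for Arp8 OE. The FECH probes were 1.05 apart in Arp8 KO against WT with a mean of -0.50, but at this level the dim probe is no measure of whether the bright one holds. Over the 7 tested probes of the mitochondrial genes ALAS1, CPOX, PPOX and FECH, Arp8 KO had a median difference from WT of -0.029 and Arp5 KO of -0.06. The lower level of FECH therefore rests on 1 probe on 1 array.

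**Figure D2:**
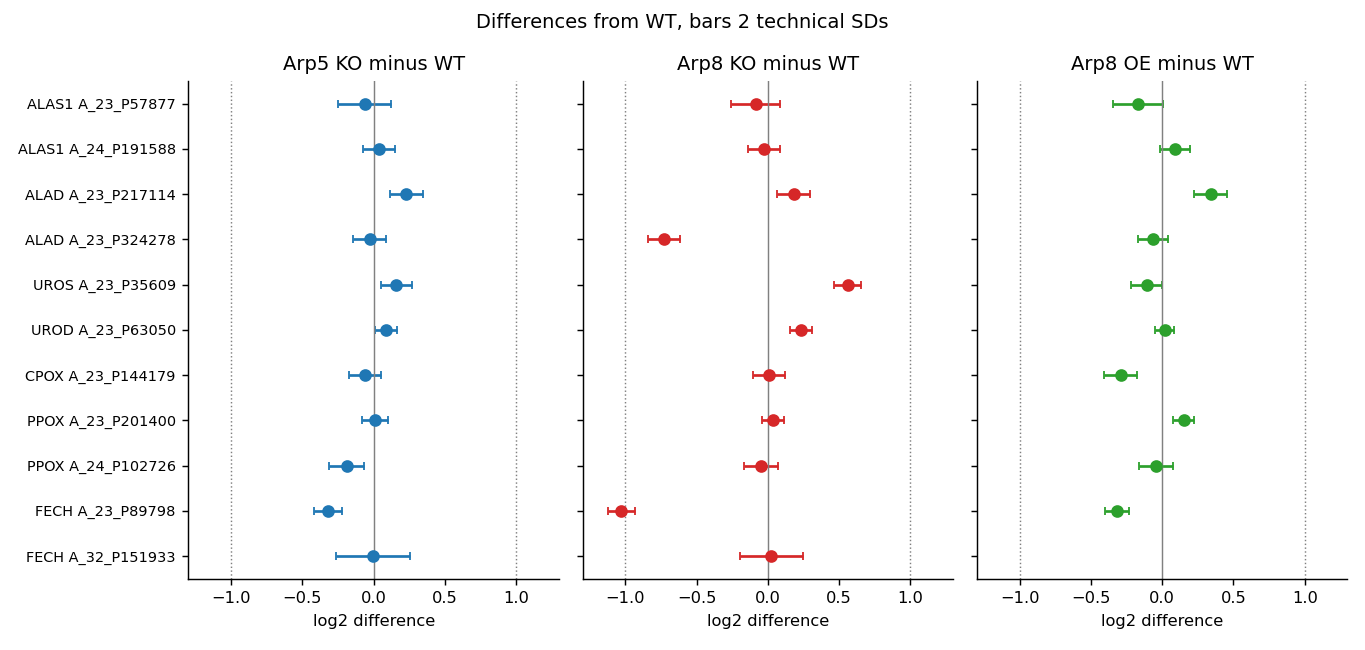
Differences from WT of each tested probe, as log2, with 1 panel per culture. Bars are 2 technical SDs to each side, which cover spots and not cultures, and dotted lines mark 2-fold. FECH A_23_P89798 in Arp8 KO, at -1.03, is the only point past a dotted line.

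The members were then set beside the whole array. Past 2-fold in either direction, there were 0 of 11 probes in Arp5 KO against WT, where 3.7% of all probes tested were called. In Arp8 KO against WT it was 1 of 11 probes, the bright FECH probe, where 7.71% of all probes were called. In Arp8 OE against WT it was 0 of 10, where the share of all probes was 5.11%. Comparing Arp8 KO directly with Arp5 KO gave 0 of 11 (5.71% of all probes) and with Arp8 OE gave 0 of 10 (5.43% of all probes). These counts lie near the background, and 1 probe in 11 is too few to set the genes apart from other genes.

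The medians lay near 0 as well. The median difference of the members from WT was -0.053 in Arp8 OE, -0.0066 in Arp5 KO and 0.0076 in Arp8 KO, beside -0.0011, 0.00 and 0.027 for all probes. Taken without sign, the median difference was 0.13, 0.064 and 0.086 for the members, and 0.23, 0.16 and 0.28 for all probes. The members were thus closer to WT than the middle probe of the array in all 3 comparisons, which is a description without a test. The sets are not alike, since the compared members were well above background on both arrays. All probes also held probes dim on 1 array: in Arp8 KO against WT, 22400 of the 24519 tested were well above background on both.

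The technical spread is a narrow yardstick here. Past 2 technical SDs there were 5 of 11 members in Arp5 KO against WT, where 55.6% of all probes passed, 5 of 11 in Arp8 KO (74.2%) and 5 of 10 in Arp8 OE (71.7%). The counts were 5 of 11 for Arp8 KO against Arp5 KO (68.7%) and 8 of 10 for Arp8 KO against Arp8 OE (73.5%). Passing it says that a difference exceeds the spread between spots and nothing of the spread between cultures. Probes of the same gene differed by more as well. In 12 of 18 comparisons between the 2 probes of a member, the gap exceeded 2 of its technical SDs. Of these 12, 3 were with the dim FECH probe. Over the 2819 genes with 2 probes, both well above background on all arrays, the median gap ran from 0.10 (Arp5 KO against WT) to 0.17 (Arp8 KO against WT). The share of those genes past 2 technical SDs was not computed, so whether 12 of 18 is unusual was not tested.

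**Figure D3:**
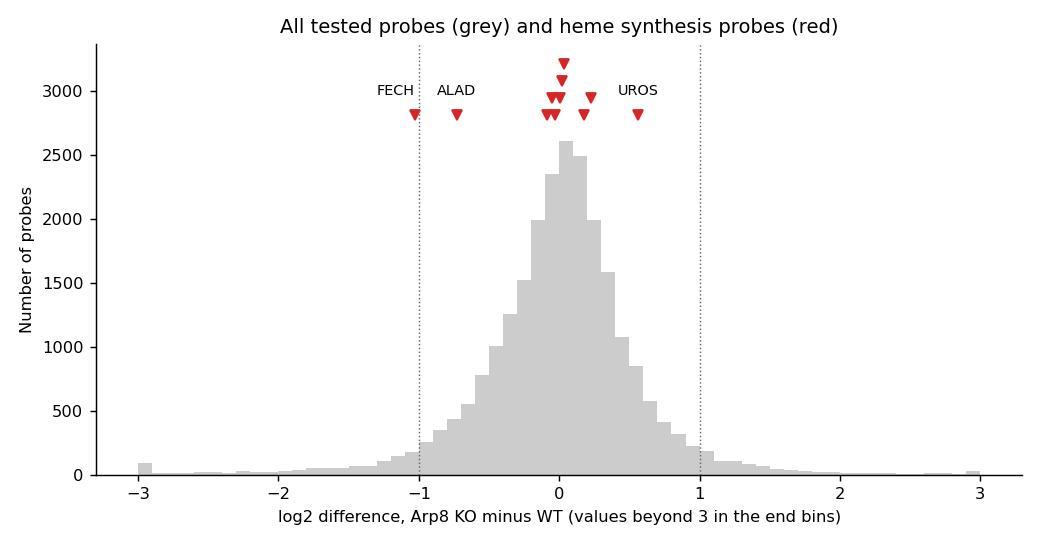
Differences of Arp8 KO from WT over all tested probes (grey bars, number of probes per 0.1 log2) and the 11 heme synthesis probes (red triangles, offset in height only where they fall together). Dotted lines mark 2-fold; the bright FECH probe lies at -1.03, the lower ALAD probe at -0.73 and UROS at 0.56, and the other members lie in the centre of the bars.

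**Figure D4:**
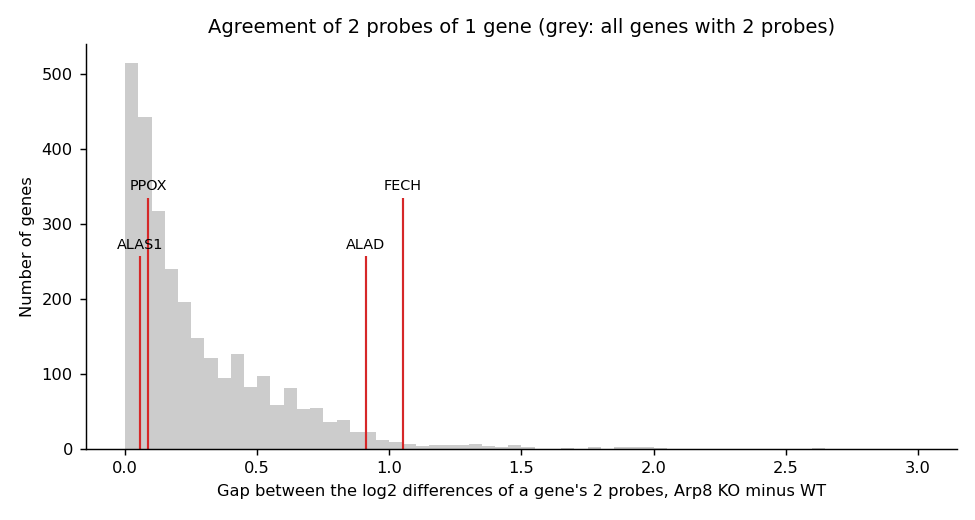
Gap between the log2 differences of the 2 probes of a gene in Arp8 KO against WT. Grey bars count the 2819 genes with 2 probes, both well above background, whose median gap was 0.17, and red lines mark ALAS1 at 0.057, PPOX at 0.087, ALAD at 0.91 and FECH, whose second probe is near background, at 1.05.

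The genes nearest to FECH in profile were found over the 4 arrays among 16575 probes of other genes. These probes carried a symbol and were well above background on all 4 arrays. Each profile was centred on its own mean and compared with that of the bright FECH probe by the root mean square difference. The nearest were ATP1B1 (0.0345 log2 units), GSTP1 (0.0376) and RBM22 (0.0378), which differed from WT in Arp8 KO by -1.09, -1.11 and -1.03. Of the probes searched, 123 lay within 0.1 log2 units of FECH.

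The DNA before the start of 3 of the genes is given to show what lies upstream of FECH, whose bright probe was lower in Arp8 KO, of ALAD, whose probes disagreed, and of ALAS1, which stayed level. Each is the 250 bases before the annotated start, in the direction of transcription, from the RefSeq table of build GRCh38.p14. Capitals mark matches on either strand to the GC box GGGCGG, and in FECH also to the core of the antioxidant response element TGACNNNGC, which NRF2 and BACH1 bind.
FECH (chr18:57586703-57586952, minus strand): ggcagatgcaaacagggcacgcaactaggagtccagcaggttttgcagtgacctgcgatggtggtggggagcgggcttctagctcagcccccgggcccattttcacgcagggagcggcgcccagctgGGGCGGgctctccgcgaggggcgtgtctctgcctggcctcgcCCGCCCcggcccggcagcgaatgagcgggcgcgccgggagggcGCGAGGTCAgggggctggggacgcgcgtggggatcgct
ALAD (chr9:113401285-113401534, minus strand): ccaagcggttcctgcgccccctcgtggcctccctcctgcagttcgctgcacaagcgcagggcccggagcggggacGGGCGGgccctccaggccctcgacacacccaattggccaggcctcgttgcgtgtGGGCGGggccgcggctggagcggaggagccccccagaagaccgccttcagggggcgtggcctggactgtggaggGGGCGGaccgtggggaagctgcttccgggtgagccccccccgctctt
ALAS1 (chr3:52197833-52198082, plus strand): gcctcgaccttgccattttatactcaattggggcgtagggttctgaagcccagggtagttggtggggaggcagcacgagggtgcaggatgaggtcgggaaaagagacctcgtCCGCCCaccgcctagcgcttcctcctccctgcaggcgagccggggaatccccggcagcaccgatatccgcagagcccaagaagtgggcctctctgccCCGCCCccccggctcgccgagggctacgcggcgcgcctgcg
Windows were found for 7 of the 8 genes, 9 in all, since ALAD and PPOX had 2 starts each, of which 1 is printed for ALAD. A GC box was present in 7 of the 9 windows, and by gene in 6 of the 7, beside 42.6% of 35116 windows of this length in the table. The 2 windows of ALAD overlap and share a GC box, and those of PPOX overlap, so the 9 are not independent. The antioxidant response element core was present in 2 of the 9 (FECH and ALAS2), beside 10.9% of windows. The GATA element AGATAA was present in 3 of the 9 (ALAS2, CPOX and 1 of PPOX), beside 9.17%. The NRF1 core TGCGCANGC was present in none, beside 3.73%. A match is a run of letters and not a site that was measured to be bound.

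Other genes of the pathway were taken by list. The first list held mitochondrial partners of the enzymes: suppliers of glycine and succinyl-CoA, carriers, iron-sulfur cluster genes and proteases that degrade ALAS1. Of the 17 genes reported, 16 had a probe, and all 22 probes were well above background on the 4 arrays. None of these 22 was past 2-fold from WT on any array. FDXR, which passes electrons to the ferredoxins of mitochondria, read 3.86 in WT, 3.79 in Arp8 OE, 4.19 in Arp5 KO and 4.75 in Arp8 KO. Arp8 KO was highest, 0.89 above WT (technical SD 0.038). SLC25A37, mitoferrin, which carries iron into mitochondria, read -3.30, -2.99, -2.60 and -2.77 on the same arrays, so that WT was lowest and Arp5 KO lay 0.70 above it (technical SD 0.11). The median of these probes in Arp8 KO was 0.054, beside 0.027 for all probes.

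The second list held genes of heme transport and of heme A synthesis, with 10 probes of 7 genes well above background. None was past 2-fold from WT on any array. Its medians were -0.28 in Arp8 OE, 0.10 in Arp5 KO and -0.27 in Arp8 KO, beside -0.0011, 0.00 and 0.027 for all probes. Of the genes furthest from WT, ABCG2, an exporter of porphyrins, differed by -0.89 in Arp8 OE and by 0.23 in Arp8 KO. COX15, which makes heme A, differed by -0.81 in Arp8 KO at 1 probe, which had 1 adjacent spot that stood out on the WT array, and by -0.31 at the other.

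The third list held regulators of the ALAS genes, of which 7 of 10 genes, with 13 probes, were well above background. Past 2-fold from WT there were 3 of 13 probes, of 2 genes, higher in Arp8 KO (3.38% of all probes) and 1 lower in Arp8 OE (2.16% of all probes). NR1D1 and NR1D2 encode the REV-ERB receptors, clock repressors known to act on ALAS1. NR1D2 read -4.33 in WT, -3.80 in Arp8 OE, -4.08 in Arp5 KO and -3.16 in Arp8 KO at A_23_P302709, and -3.94, -3.47, -3.39 and -2.63 at A_24_P943472. Arp8 KO was highest at both probes, by 1.18 and 1.31 from WT, and the second had 1 adjacent spot that stood out on the WT array; the part of that spot was not tested. NR1D1 was higher in Arp8 KO by 1.26 and 0.98 at its probes, while ALAS1 differed by -0.029 and -0.086 there. IREB2, an iron sensor that controls translation of ALAS2, read -0.31 in WT, -1.48 in Arp8 OE, -0.55 in Arp5 KO and -1.15 in Arp8 KO, so that Arp8 OE was lowest, at -1.17 from WT (technical SD 0.063).

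**Figure D5:**
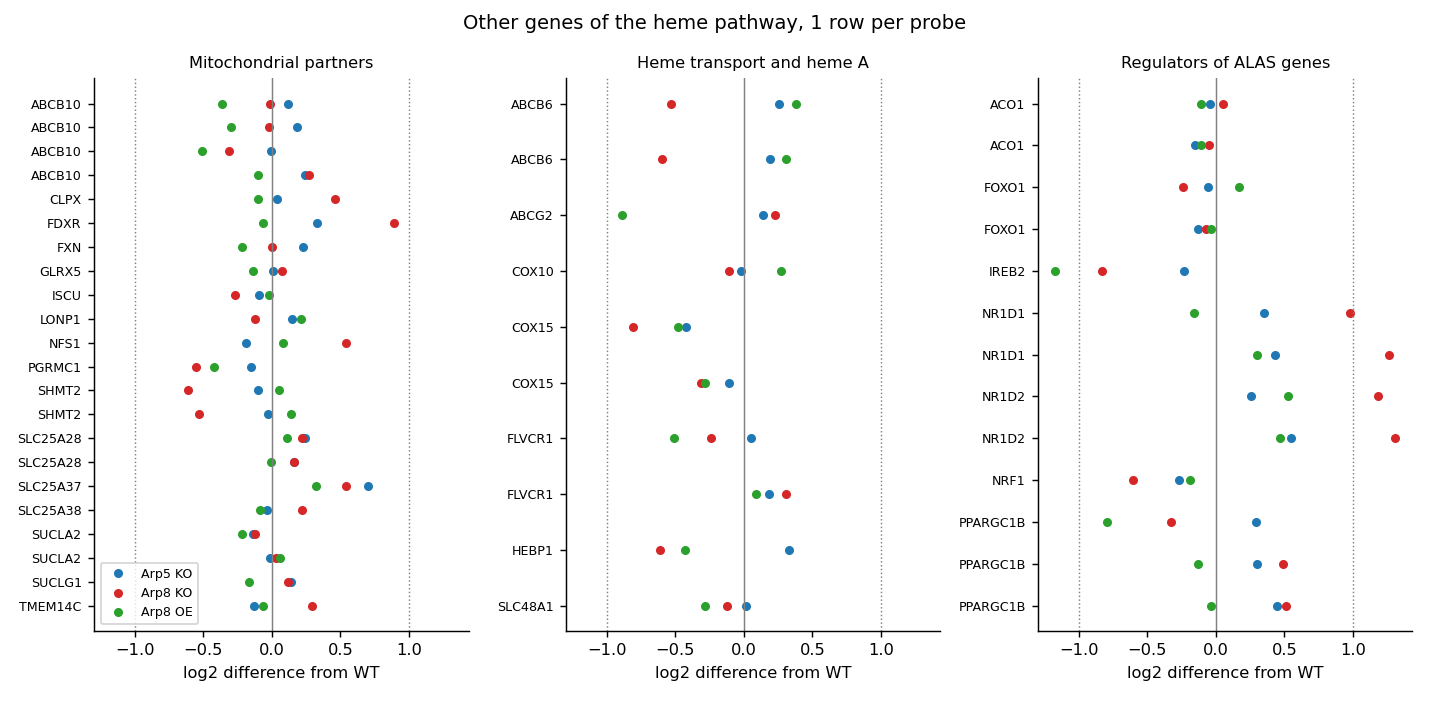
Differences from WT, as log2, of the other pathway genes with a probe well above background, 1 line per probe, in 3 panels by list. Blue is Arp5 KO, red Arp8 KO and green Arp8 OE, and dotted lines mark 2-fold; FDXR lies at 0.89 in Arp8 KO, the NR1D2 probes at 1.18 and 1.31, and IREB2 at -1.17 in Arp8 OE.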

How the data were processed

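Scanner output of each array, deposited by the authors, was the starting point; its intensity values are linear and come from Agilent Feature Extraction (version 10.10.1.1 in the headers). Background had been subtracted from the processed signal within each array, and arrays had not been scaled to each other. Flags of the software for well above background, saturated and outlier spots were used. The series matrix, deposited by the authors, holds the intensity of the same spots times 1 factor per array (2.01, 2.29, 1.99 and 2.25 for WT, Arp8 OE, Arp5 KO and Arp8 KO) and served as an alternative.

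Levels were the log2 ratio of the processed signal to the 75th percentile of that array without its control spots (735.1, 647.4, 739.6 and 655.7 in the same order). Outlier spots (69 to 76 an array) were left out and spots of a probe averaged. A probe counted as well above background where this flag was set on 50% or more of its spots. It entered a comparison if this held on at least 1 of its arrays. A dim side was set to the array's lowest level well above background if that was higher. Bounds under 1-fold were left out for the members, the lists and all probes. Only the shares of all probes past 2-fold in either direction in the Results kept them. In Arp8 KO against WT these shares covered 24578 probes, beside 24519 without such bounds. Probes were kept apart. Symbols came from the RefSeq table of GRCh38.p14, whereas the file headers name hg19, so probe coordinates are not given.

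The technical SD of a difference was the median, over the 50 nearest in level of 264 probes printed 10 times, of the SD between spots of the difference, divided by the square root of the number of spots. Its median was 0.051 over those probes and it ran from 0.034 to 0.13 for the members. The difference script was tested on simulated data. None of the spots adjacent to a tested member probe stood out by over 2-fold on 1 array alone.

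The precision is limited by 1 array per group, and no test was made. The labels disagree on treatment: titles, protocol and design give heme for all, the treatment entry gives no heme for both knockouts, and the sample source says that Arp8 KO had heme but Arp5 KO had none. Groups follow the genotype.

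The members and lists were chosen with earlier results of these data known. Some genes of the pathway are not reported here and are left out of the list counts. Named genes were all members, ACTR5 and ACTR8, list genes with a probe past 2-fold from WT or otherwise the 2 furthest from WT of a list, and the 3 nearest profiles. Tried as alternatives were median scaling, quantile normalization, cyclic loess, normexp with an offset of 50 on the median spot signal, the series matrix, no filter and no floor, only probes well above background on both arrays, the mean over a gene's probes, Arp8 OE as the reference, and thresholds of 1.5-fold and 4-fold. Python 3.11.15 with numpy 2.4.6, pandas 2.3.3 and matplotlib 3.10.9, and R 4.3.3 with limma 3.58.1 for normalization only, were used.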

Additional observations from a re-analysis of the deposited data

How the results depend on the processing

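The bright FECH probe in Arp8 KO against WT ranged from -1.04 to -0.95 over the alternatives that kept WT as the reference and the probes apart, the ALAD probe A_23_P324278 from -0.75 to -0.71 and UROS from 0.48 to 0.58. With Arp8 OE in place of WT these became -0.71, -0.67 and 0.68. Against WT, the mean over probes was -0.50 for FECH and -0.28 for ALAD. With Arp8 OE as the reference the ALAD probe A_23_P217114 turned from 0.18 to -0.16 in Arp8 KO and from 0.23 to -0.11 in Arp5 KO. The count of heme synthesis probes past 2-fold in Arp8 KO against WT, 1 as reported, became 0 with normexp (where 2.84% of all probes passed), with the mean over a gene's probes, with Arp8 OE in place of WT and at 4-fold, and 2 at 1.5-fold (21.3% of all probes). At 1.5-fold it became 2 in Arp8 KO against Arp5 KO (14.8% of all probes) and 3 against Arp8 OE (16.2% of all probes), from 0 in both. The median difference of the members in Arp8 KO against Arp8 OE, -0.062 as reported, became -0.0095 with scaling to the median and -0.12 with no filter and no floor, and the median in Arp8 KO against WT became -0.062 with Arp8 OE as the reference. The counts over all probes moved by over 1.5 times in all 5 comparisons with normexp, without the filter, with only probes well above background on both arrays, with probes averaged by gene and with the other thresholds. In place of the 1896 probes past 2-fold in Arp8 KO against WT, these gave 696, 4572, 1208 and 883 (genes), and 5227 at 1.5-fold and 391 at 4-fold. As shares of those tested these were 2.84%, 11.2%, 5.39% and 7.25% (genes), and 21.3% and 1.59%, beside 7.71% as reported. The number tested changed as well, to 40996 probes without the filter, 22400 on both arrays and 12180 genes, and a threshold sets its count directly. Why normexp gave fewer was not tested. Of 485 values recomputed, 42 differences of single probes and 10 counts or medians of the members moved by more than their technical SD or count limit. Many of the 485 could hardly move, so these counts understate the dependence on processing. The series matrix is the same signal times 1 factor per array, which the scaling removes. The filter settings leave the difference of a probe well above background on both arrays as it was. No paired analysis was possible because each group had 1 array. The array cannot resolve ALAS2 or the dim FECH probe, which lie at or near background.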
